A study of Mus musculus with 8 samples.

Results

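The genes examined here are those of glycolysis from aldolase to pyruvate kinase, with glucose-6-phosphate isomerase, which acts upstream of the phosphofructokinase step that precedes aldolase. They were chosen by symbol and are Gpi1, Aldoa, Aldoc, Tpi1, Gapdh, Pgk1, Pgam1, Eno1, Eno2 and Pkm, 10 of the 22274 genes in the table. A second row also carries the symbol Aldoa (ENSMUSG00000114515), with 2 counts over all libraries, and was not used as a gene of its own. All 10 genes passed the filter on low counts that left 13533 genes for testing.

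RNA-seq was performed on primary murine cardiac fibroblasts that carried either a control vector with GFP (Ad-EV) or an IRF7 vector (Ad-IRF7), with 4 libraries in each group. Cells of both groups received TGF-β, given in the study's methods as 5 ng/ml for 24 h, so no group without TGF-β was compared here. The design text names an adeno-associated virus and the methods an adenovirus, and nothing says whether the libraries of a group came from separate cell preparations or mice, so p-values measure the spread between libraries. Library totals lay between 24454801 and 28658826 counts.

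Mouse Irf7 was examined first. Under the label Ad-EV (GFP) it had 2861, 3680, 2272 and 3291 counts, and under the label Ad-IRF7 it had 385, 421, 380 and 404. The log2 fold change was -2.96 (SE 0.12, adjusted p = 7.7e-11), tested with edgeR's quasi-likelihood F test, as are all adjusted p-values below that name edgeR. The gene of the design was thus lower under the label that names its overexpression. The methods list an adenovirus named for human IRF7, whose transcript these counts of mouse genes would not measure, and the files do not settle which vector was used. Whether the labels of the groups were exchanged was not tested either. Every direction below is therefore given between libraries as they are labelled, written as libraries labelled EV and libraries labelled IRF7, and mouse Irf7 was the lower in the latter throughout.

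Glycolysis splits glucose into a pair of pyruvate molecules. After glucose has been phosphorylated, isomerised and phosphorylated again, aldolase cleaves the hexose, triose phosphate isomerase interconverts the resulting trioses, and the later enzymes oxidise and rearrange the triose to pyruvate with a net gain of ATP. Several steps have tissue-restricted paralogs, among them brain-type aldolase C and neuronal enolase, and many of these genes are textbook targets of hypoxia-inducible factors, which bind a short core sequence in their promoters.

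The promoter sequences are shown because most of these genes were higher together. RefSeq promoter windows of GRCm38.p6, running from 250 bases before to 50 bases after an annotated start, were found for all 10 genes, 16 windows in all. The hypoxia response core ACGTG was searched on both strands, so it reads CACGT on the printed strand when it lies on the other. It was present in 19.6% of all 32851 windows and in 7 of the 16 windows here, which belong to 6 of the 10 genes. The share of all genes with a matching window was not counted. The 19.6% is therefore no background for the number of genes, since some genes have several windows. A match is a description of the letters and not evidence of binding. The Pgk1 window, shown whole with the motif in capitals, held a pair of sites that begin at -150 and -131 from the start.
Pgk1, chrX:106186850-106187149, plus strand: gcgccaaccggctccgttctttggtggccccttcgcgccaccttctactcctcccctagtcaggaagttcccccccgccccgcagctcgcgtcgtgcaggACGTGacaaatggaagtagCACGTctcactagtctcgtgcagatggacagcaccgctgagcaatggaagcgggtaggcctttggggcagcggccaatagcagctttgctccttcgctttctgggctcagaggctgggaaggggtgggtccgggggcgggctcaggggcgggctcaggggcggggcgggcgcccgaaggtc

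The other windows with a match are given as the bases around it, with the motif in capitals. Counted from the start as base 1, with negative numbers before it, the motif began at -126 in Aldoa, -114 in Pgam1, -75 and 9 in Pkm, 28 in Aldoc and 43 in Gapdh. The same Aldoa site lay at -202 from another annotated start.
Aldoa, chr7:126799363-126799392, minus strand: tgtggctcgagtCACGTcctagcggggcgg
Pgam1, chr19:41911745-41911774, plus strand: cgctccttgcttACGTGcgctccgtgactg
Pkm, chr9:59657140-59657169, plus strand: ctccgatccggtCACGTccgcgccgcagca
Pkm, chr9:59657223-59657252, plus strand: ccgcattctagtCACGTccgcggactcctc
Aldoc, chr11:78323088-78323117, plus strand: cccccagggagtCACGTagctctgcggcaa
Gapdh, chr6:125165724-125165743, minus strand: gctttacgggtgCACGTagc

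Windows of Eno1, Eno2, Tpi1 and Gpi1 held no ACGTG. The windows of Tpi1, which had the largest fold change of the 10 genes, and of Gpi1, which had the smallest, are shown for comparison.
Tpi1, chr6:124814109-124814408, minus strand: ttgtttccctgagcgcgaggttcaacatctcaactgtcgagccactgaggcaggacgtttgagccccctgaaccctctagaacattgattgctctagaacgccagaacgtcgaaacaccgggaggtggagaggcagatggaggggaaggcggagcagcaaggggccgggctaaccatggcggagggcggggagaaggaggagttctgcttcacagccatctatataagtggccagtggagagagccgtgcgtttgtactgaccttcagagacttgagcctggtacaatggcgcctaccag
Gpi1, chr7:34230287-34230586, minus strand: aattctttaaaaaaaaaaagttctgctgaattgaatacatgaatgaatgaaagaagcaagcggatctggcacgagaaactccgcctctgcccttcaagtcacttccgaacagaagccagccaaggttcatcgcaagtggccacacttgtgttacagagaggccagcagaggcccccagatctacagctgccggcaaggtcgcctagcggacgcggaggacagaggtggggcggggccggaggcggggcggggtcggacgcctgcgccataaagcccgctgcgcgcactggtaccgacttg

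The related core GCGTG was in 32.4% of all windows and in 7 of the 16 windows here. They belong to 4 of the 10 genes, Eno1, Gapdh, Aldoc and Pgam1. The GC box GGGCGG, searched on both strands, was in 35.7% of all windows and in 10 of the 16 windows here, of 8 of the 10 genes. Here too the shares of all windows are no background for the numbers of genes. Some windows of Eno1 and of Aldoa overlap, so the same site can count more than once in these numbers of windows.

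Of the 10 genes, 8 were higher in the libraries labelled IRF7, those with less mouse Irf7 (edgeR, adjusted p under 0.05). Among all tested genes 29.0% were higher by the same rule, and among the 2189 genes with a mean of at least 100 CPM (counts scaled to a common library size) 35.5% were. The 10 genes were chosen with earlier results of these data known, so these shares describe them and do not test them as a set. None of the 10 was lower (0 also at an unadjusted p under 0.05, with DESeq2 and with limma), against 29.9% of all genes. The median log2 fold change was 0.48 over the 10 genes and 0.0015 over all tested genes. All 4 libraries labelled IRF7 lay above all 4 labelled EV for 8 of the 10, against 26.8% of all tested genes. A fold change over 1.5 was reached by 2 of the 10, Tpi1 and Pkm, against 9.26% of all genes. Pgk1 lay at that limit, and in 8 of 20 alternative settings it exceeded 1.5-fold too. The summed counts of the 10 genes were 0.765% to 0.851% of a library labelled EV and 1.06% to 1.20% of a library labelled IRF7.

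**Figure D1:**
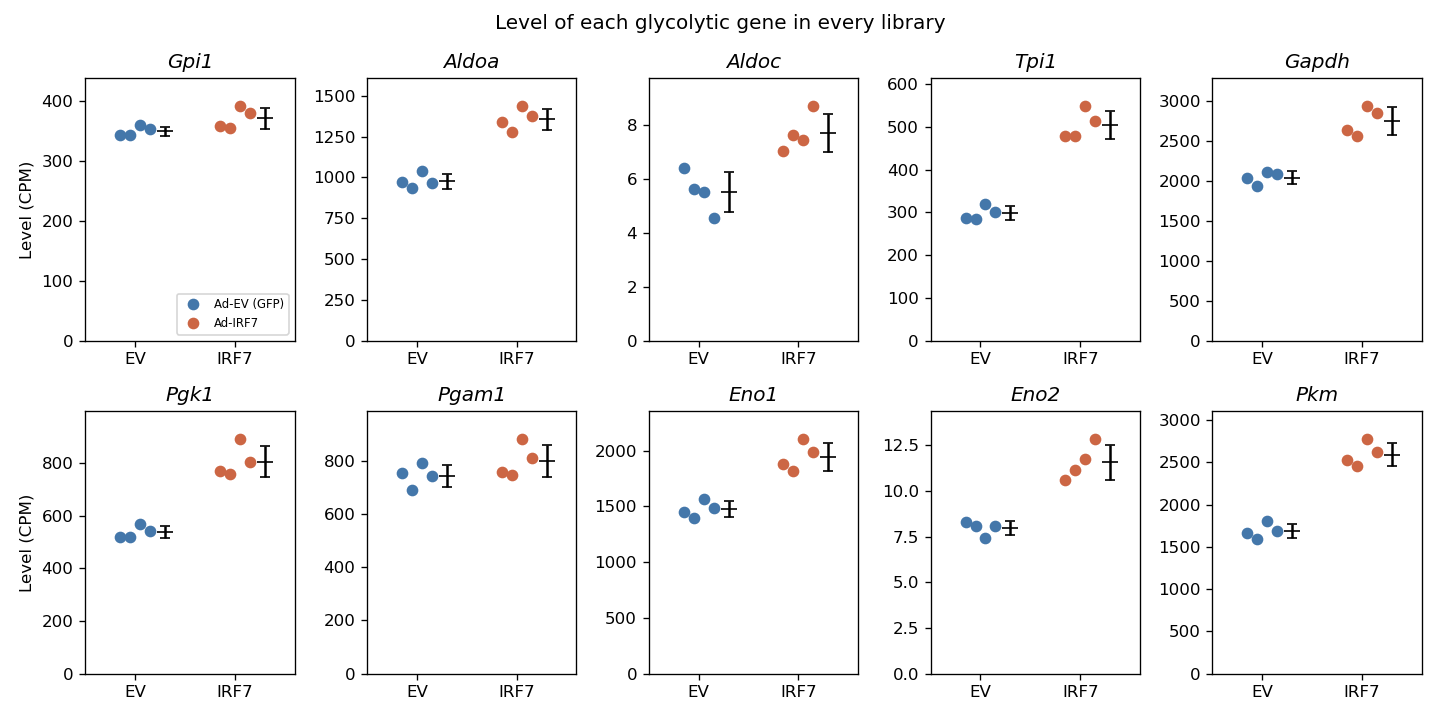
Level of each of the 10 genes in CPM (vertical axis from 0) in the 4 libraries labelled EV and the 4 labelled IRF7, with points for libraries and the mean and SD beside them. The groups overlap for Gpi1 and Pgam1 and are separate for the other 8 genes.

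Gpi1, glucose-6-phosphate isomerase, makes fructose 6-phosphate and precedes the committed step. Its level was 344, 344, 360 and 353 CPM in the libraries labelled EV and 359, 355, 391 and 380 CPM in those labelled IRF7. The lower libraries labelled IRF7 overlapped the higher ones labelled EV. The log2 fold change was 0.08 (SE 0.036, 95% interval 0.0074 to 0.16), with an edgeR adjusted p of 0.057 and p = 0.086 by exact two-sided permutation of the libraries. On the FPKM scale (fragments scaled for transcript length and depth, computed separately by the authors) the groups did not overlap, at 162 to 170 FPKM against 178 to 200 FPKM, and limma on log2(FPKM + 1) gave a log2 fold change of 0.16 (adjusted p = 0.0047). On the counts, too, the call depended on the processing, and over both measures Gpi1 passed in 9 of 20 alternative settings.

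Aldolase cleaves fructose 1,6-bisphosphate, and Aldoa encodes its muscle-type form. Aldoa stood at 969, 934, 1041 and 965 CPM in the libraries labelled EV and at 1339, 1281, 1435 and 1376 CPM in those labelled IRF7. The groups did not overlap, and the log2 fold change was 0.47 (SE 0.039, adjusted p = 9.4e-08, edgeR). Aldoc, the brain-type form, had 6.38, 5.61, 5.51 and 4.54 CPM against 7.01, 7.61, 7.42 and 8.67 CPM. It rested on 119 to 221 counts per library, so its error was larger than that of the abundant genes. Its log2 fold change was 0.48 (SE 0.11, adjusted p = 0.0022, edgeR), and the groups again did not overlap. Aldoc made up 0.385% ± 0.0736 (SD, n = 4) of the FPKM of Aldoa and Aldoc in the libraries labelled EV and 0.389% ± 0.0470 (SD, n = 4) in those labelled IRF7. This share differed by less than the spread between libraries (exact two-sided permutation test, p = 0.94).

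Tpi1, triose phosphate isomerase, showed the largest fold change of the 10. It stood at 288, 284, 320 and 301 CPM in the libraries labelled EV and at 478, 478, 548 and 513 CPM in those labelled IRF7. Every library labelled IRF7 was well above every library labelled EV. The log2 fold change was 0.76 (SE 0.048, adjusted p = 6.4e-09, edgeR), higher than in 93.0% of all tested genes.

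Gapdh, glyceraldehyde-3-phosphate dehydrogenase, reduces NAD in the oxidative step and is often used as a reference gene in qPCR. Its level was 2039, 1930, 2110 and 2080 CPM in the libraries labelled EV and 2633, 2565, 2930 and 2853 CPM in those labelled IRF7. The groups were separate, with a log2 fold change of 0.43 (SE 0.041, adjusted p = 4.7e-07, edgeR). Pgk1, phosphoglycerate kinase, forms ATP in the next step and is also used as a reference. It stood at 521, 519, 569 and 542 CPM against 771, 757, 889 and 802 CPM, with no overlap. Its log2 fold change was 0.58 (SE 0.047, adjusted p = 8.1e-08, edgeR), just short of 1.5-fold.

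Both were set against 10 genes commonly used as references. Of these, 1 was higher, 2 were lower and 7 did not pass the test, and their log2 fold changes ran from -0.11 to 0.14. Gapdh exceeded the mean log2 CPM of the 10 by 2.92 ± 0.054 (SD, n = 4) in the libraries labelled EV and by 3.36 ± 0.085 in those labelled IRF7, a difference of 0.45 (p = 0.029 by exact two-sided permutation, the smallest that 4 against 4 libraries can give). The same difference for Pgk1 was 0.60 (exact two-sided permutation test, p = 0.029). Against Actb alone the differences were 0.53 for Gapdh and 0.68 for Pgk1. Actb was itself 1 of the 2 lower reference genes (log2 fold change -0.10, adjusted p = 0.0055, edgeR). With Actb left out of the list, the differences were 0.44 for Gapdh and 0.59 for Pgk1.

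Pgam1, phosphoglycerate mutase, moves the phosphate group on phosphoglycerate. It had 752, 689, 790 and 743 CPM in the libraries labelled EV and 759, 745, 879 and 810 CPM in those labelled IRF7. The groups overlapped. The log2 fold change was 0.10 (SE 0.051, 95% interval -0.0059 to 0.21), with an edgeR adjusted p of 0.096 and p = 0.17 by exact two-sided permutation. Pgam1 passed in 4 of 20 alternative settings.

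Enolase makes phosphoenolpyruvate, and Eno1 encodes its ubiquitous form. Eno1 stood at 1451, 1399, 1565 and 1489 CPM in the libraries labelled EV and at 1876, 1816, 2099 and 1984 CPM in those labelled IRF7. The groups were separate, with a log2 fold change of 0.40 (SE 0.044, adjusted p = 2e-06, edgeR). Eno2, the neuronal form, had 8.32, 8.05, 7.41 and 8.08 CPM against 10.6, 11.2, 11.7 and 12.8 CPM. It too was higher in every library labelled IRF7, on 183 to 324 counts per library, with a log2 fold change of 0.54 (SE 0.083, adjusted p = 5.8e-05, edgeR). Eno2 made up 0.501% ± 0.0748 (SD, n = 4) of the FPKM of Eno1 and Eno2 in the libraries labelled EV and 0.539% ± 0.0524 (SD, n = 4) in those labelled IRF7. The shares overlapped (exact two-sided permutation test, p = 0.46).

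Pkm, the muscle-type pyruvate kinase, forms pyruvate and ATP in the last step. It stood at 1666, 1592, 1806 and 1686 CPM in the libraries labelled EV and at 2527, 2454, 2771 and 2617 CPM in those labelled IRF7. The groups were far apart, with a log2 fold change of 0.62 (SE 0.041, adjusted p = 9.9e-09, edgeR). Counts per gene do not separate the M1 and M2 splice forms of Pkm. Of 5 regulators of that exon choice, 1 was higher, 1 was lower and 3 did not pass the test, and none changed by more than 1.5-fold.

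**Figure D2:**
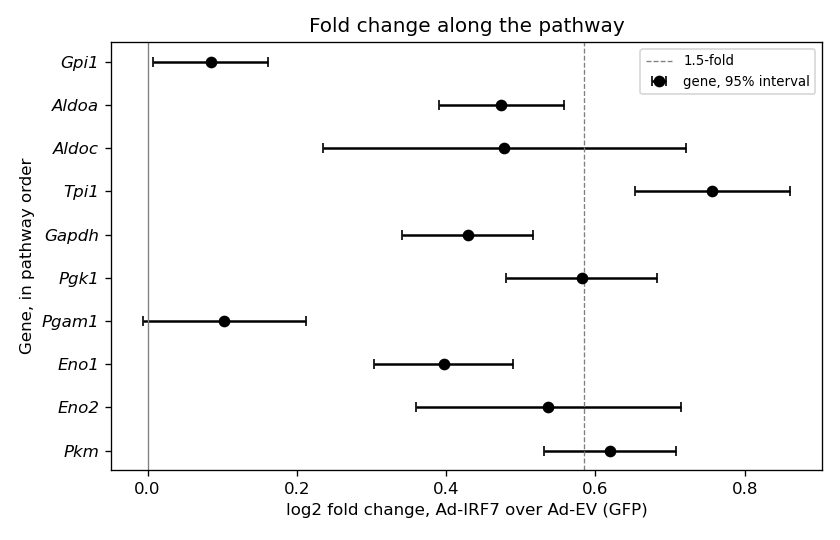
Log2 fold change of each gene between the libraries labelled IRF7 and Ad-EV (GFP), in pathway order, with 95% intervals from edgeR's quasi-likelihood fit and a dashed line at 1.5-fold. Gpi1 and Pgam1 lie at 0.08 and 0.10, and the other 8 genes between 0.40 and 0.76.

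The fold changes were thus unequal along the pathway, and this was read within libraries as the log2 CPM of a gene minus that of another of the 10. Pgam1 minus Pgk1 was 0.47 ± 0.050 (SD, n = 4) in the libraries labelled EV and -0.012 ± 0.018 in those labelled IRF7, so the gap fell by 0.48 (SE 0.027) with no overlap. Aldoa minus Gpi1 was larger by 0.39 (SE 0.024), Tpi1 minus Aldoa by 0.28 (SE 0.025) and Eno1 minus Pgam1 by 0.29 (SE 0.019) in the libraries labelled IRF7, each with no overlap between groups. Pkm minus Eno1 was larger by 0.22 (SE 0.011) and Pgk1 minus Gapdh by 0.15 (SE 0.030), also without overlap. Gapdh minus Tpi1 went the other way, with a change of -0.33 (SE 0.026) and no overlap. Pgam1 minus Gpi1, the pair that did not pass, moved by 0.018 (SE 0.038) and overlapped.

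Levels were compared between genes per transcript length, in FPKM. Gapdh led with 1496 FPKM in the libraries labelled EV and 2062 FPKM in those labelled IRF7. Eno1, Pkm and Aldoa followed at 724, 723 and 663 FPKM in the libraries labelled EV, where Eno1 overlapped Pkm and Pkm overlapped Aldoa. Pgam1 at 415, Pgk1 at 292, Tpi1 at 186 and Gpi1 at 167 FPKM came next, each separate from its neighbour. Eno2 at 3.63 FPKM and Aldoc at 2.55 FPKM were far below. In the libraries labelled IRF7, Pkm at 1142 FPKM stood above Eno1 at 972 FPKM, and the order of the other 8 genes was the same. There Eno1 overlapped Aldoa, and Pgam1 at 454 FPKM overlapped Pgk1 at 445 FPKM.

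**Figure D3:**
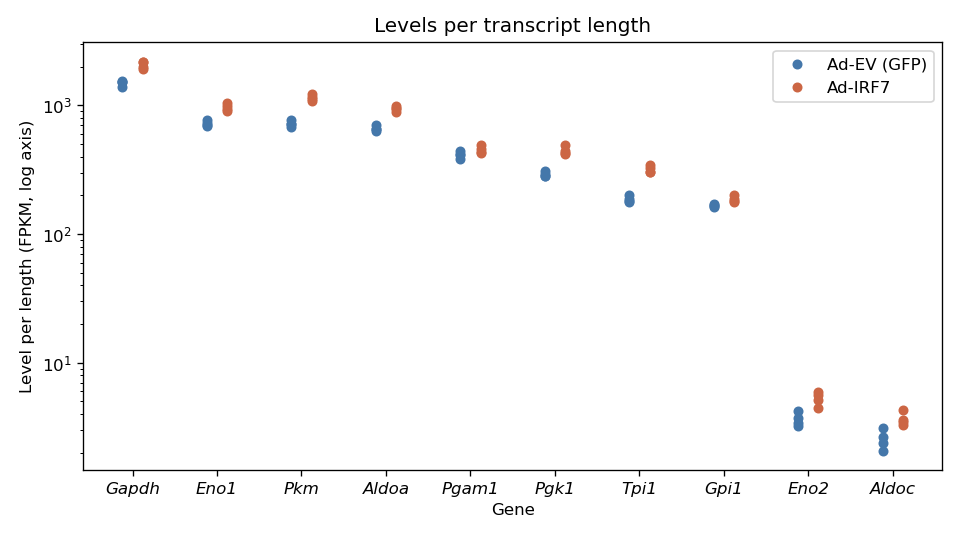
FPKM of each gene in every library on a log axis, ordered by the mean in the libraries labelled EV. The 8 abundant genes lie above 160 FPKM, and Eno2 and Aldoc lie below 6 FPKM.

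Within a group, the 8 abundant genes were high or low in the same libraries. Pearson's r between their deviations from the group means was 0.867 to 0.985 (median 0.944) over 28 pairs and 8 libraries, given as a description since the points share library and scaling. All 8 were above their group mean in replicate 3 of each group and all 8 below it in replicate 2 of each group and in replicate 1 of the libraries labelled IRF7. Pairs with Aldoc or Eno2 were less correlated, with a median r of 0.052 over the 17 pairs that include either. Both genes had at most 324 counts in a library, so counting noise weighs more on their deviations. Its part in the low r was not tested, so separate behaviour cannot be read from it.

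**Figure D4:**
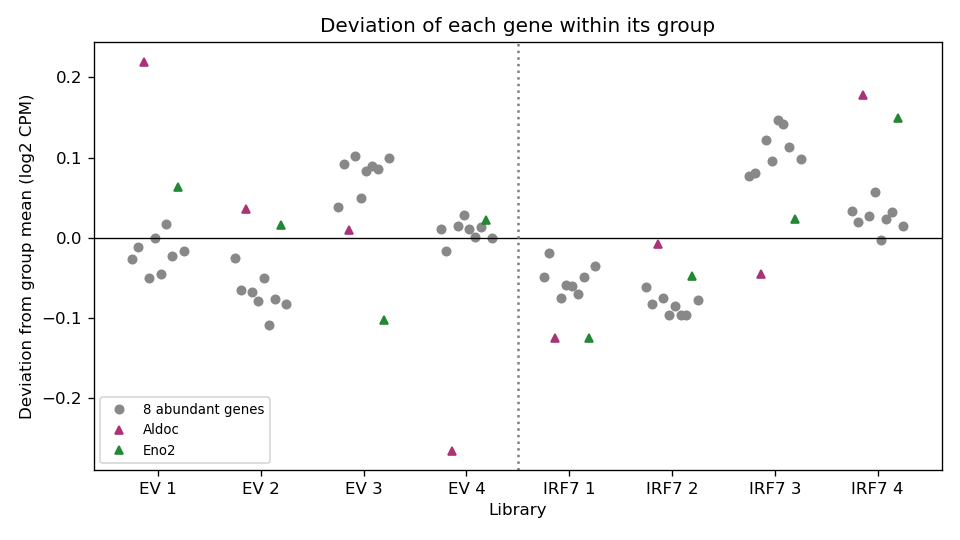
Deviation of each gene from its group mean (log2 CPM) in each library, grey for the 8 abundant genes. The grey points sit together in every library, above 0 in replicate 3 of both groups, whereas Aldoc and Eno2 scatter.

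The genes are spread over the genome, except for a group on chromosome 6. In GRCm38, Gpi1 lies at chr7:34201330-34230336 and Aldoa at chr7:126795234-126800751, both on the minus strand. On the plus strand lie Eno1 at chr4:150236721-150248879, Pkm at chr9:59656368-59679375, Aldoc at chr11:78322968-78327781, Pgam1 at chr19:41911923-41918660 and Pgk1 at chrX:106187100-106203699. Eno2, Tpi1 and Gapdh are close together on chromosome 6 (GRCm38, all minus strand) within 406 kb (124760053 to 125166467). Of the 15 other tested genes in that interval, 5 were higher, 6 lower and 4 not past the test, with a median log2 fold change of -0.09. Among all tested genes 29.0% were higher and 29.9% lower.

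The other enzymes of the chain and their tissue paralogs formed a list of 18 genes, of which 13 were tested, 6 were higher and 1 was lower. The upstream kinases Hk1 (log2 fold change 0.79), Hk2 (0.998), Pfkl (0.83) and Pfkp (0.77) were higher by more than 1.5-fold. The lactate dehydrogenase subunits went opposite ways. Ldhb was lower (-1.32), from 16.6 to 6.64 CPM, and the far more abundant Ldha, named after its values were seen, was higher (0.52), from 939 to 1345 CPM. Of 19 tested enzymes at branch points, 6 were higher, 5 were lower and 8 did not pass, with a median of 0.048. For this list and those below, the shares over all tested genes are 29.0% higher and 29.9% lower. Gfpt2, which draws fructose 6-phosphate into hexosamines, was higher (1.38), as was Taldo1 of the pentose phosphate pathway (1.47). Gpd1l (-0.92) and the mitochondrial carboxykinase Pck2 (-0.74) were lower.

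Among 6 transcription factors known for glycolytic genes, 2 were higher and 4 were lower. Myc was higher (log2 fold change 0.82) and Epas1, which encodes HIF-2α, was lower (-1.38). Hif1a, named after its values were seen, was at 468 ± 69.9 CPM (SD, n = 4) against 656 ± 139 CPM, a log2 fold change of 0.49 (adjusted p = 0.0028, edgeR). Arnt (-0.11), Max (-0.17) and Sp1 (-0.19), named likewise, were lower by less than 1.5-fold. Whether any of the 6 factors had a part in the results was not tested. KEGG terms in the table place 6 of the 10 genes in HIF-1 signaling.

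The fibroblast label was checked against 12 markers, all of which were tested and summed to 17530 to 18120 CPM in the libraries labelled EV and 15940 to 16940 CPM in those labelled IRF7. Of these, 2 were higher and 7 lower, and Tcf21 was lower by more than 1.5-fold (log2 fold change -1.33). Of 9 cardiomyocyte markers only Tnnt2 was tested, and Myl3 was at 0. Macrophage markers summed to 265 to 315 CPM against 337 to 372 CPM, with 4 of 7 higher and Itgam past 1.5-fold (1.07). Mural markers summed to 68.8 to 75.9 CPM against 79.0 to 98.7 CPM and went both ways. Cspg4 was higher, from 22.4 to 63.3 CPM, as was Rgs5 (log2 fold change 0.73). Notch3 (-1.61, from 41.4 to 13.6 CPM) and Myh11 (-0.98) were lower. Notch3 made up most of the sum in the libraries labelled EV, and Cspg4 most of it in those labelled IRF7. Endothelial markers summed to 208 to 220.0 CPM against 207 to 235 CPM, with 2 of 6 higher, Kdr past 1.5-fold (0.79), and 1 lower. Neuronal and glial markers, of cells known for Eno2 and Aldoc, summed to 116 to 139 CPM against 81.9 to 108 CPM. Of the 4 tested, 0 were higher, 1 was lower and 3 did not pass. The lower gene, Tubb3, made up most of the sum, with a mean of 106 CPM against 74.5 CPM. Red cell markers reached at most 0.243 CPM. The part of these cell types in the results was not tested, and in bulk RNA more cells of a type and more RNA per cell cannot be told apart.

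Some of these genes have near-identical copies. Of the 150-base words in their transcripts, 49.4% of those of Pgk1, 32.2% of Pgam1, 18.1% of Gapdh, 16.5% of Eno1 and 7.22% of Pkm also occurred in transcripts of other annotated genes, and none of those of the other 5 genes. How reads with several matches were counted is not given in the sources used here, so the levels of these 5 genes are less certain. Annotated genes overlap some of them. Pkm shares 3887 bases with Gm49759 on the same strand. On the opposite strand, Gpi1 overlaps Gm26762 by 5482 bases, Aldoa overlaps Fam57b, which had at most 24 counts in a library, by 3084 bases and Gm44856 by 304 bases, Gapdh overlaps Iffo1 by 68 bases and Tpi1 overlaps Spsb2 by 34 bases.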

How the data were processed

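RNA-seq libraries of TGF-β-treated murine cardiac fibroblasts were analysed, 4 under each of the labels Ad-EV (GFP) and Ad-IRF7. Per the study's methods, the authors trimmed paired reads with Trimmomatic, aligned them to GRCm38 with HISAT2 and deposited raw counts per gene from HTSeq. The authors deposited FPKM from Cufflinks beside them. Versions and the strand setting are not given in the sources used here, and the labels and the methods name different library kits. Columns with the authors' group means, fold changes and p-values were not used.

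Counts were tested with edgeR 4.0.16 (R 4.3.3; glmQLFit and glmQLFTest, TMM scaling, filterByExpr) and p-values adjusted by Benjamini-Hochberg over 13533 genes. The fit was tested on simulated data. Log2 CPM used a prior count of 2. Shares and reference-gene differences were tested with exact two-sided permutation over libraries. Alternatives were DESeq2 1.42.0, limma 3.58.1 on log-scaled FPKM (mean over 0.1; pseudocount 1 or 0.1), other scalings and filters, a replicate block and leaving out each library. A further alternative summed copies of Eno1 and Aldoa with their gene. The listed copies of Pgk1, Pgam1 and Gapdh had no counts of their own, so this alternative could not reach those genes. Summing both rows named Aldoa was an alternative chosen after seeing the data. Motifs and gene positions came from RefSeq windows and GENCODE annotation of GRCm38, which held 22219 of the 22274 identifiers.

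The members and lists were chosen with earlier results of these data known. All 10 genes are described with their values, and list genes and markers are named where they passed an adjusted p of 0.05 and 1.5-fold. Hif1a, Arnt, Max, Sp1, Ldha, Tnnt2, Myl3 and Tubb3 are named outside that rule, after their values were seen. Actb is named outside it too, as the reference gene that was used alone. With library totals from 24454801 counts, Gpi1 and the 7 other abundant genes had at least 7101 counts in each library and Aldoc and Eno2 at most 324.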

Additional observations from a re-analysis of the deposited data

How the results depend on the processing

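Over 20 alternatives the log2 fold changes of the 8 genes that passed kept their direction and their side of the adjusted p threshold, while Pgk1 (0.53 to 0.61 on the log2 scale) exceeded 1.5-fold in 8 of them. The number of genes higher was 8 to 10 of 10, and none was lower in any alternative. Gpi1 passed in 9 of 20 alternatives and Pgam1 in 4 of 20. Summing both rows named Aldoa, or copies of Eno1 and Aldoa with their gene, added no counts to either. These alternatives could therefore hardly move Gpi1 or Pgam1. Without scaling beyond library size both passed (adjusted p = 0.012 for Gpi1 and 0.034 for Pgam1 from edgeR's quasi-likelihood test), and the cause was not tested. With the replicate number as a replicate block, 10 genes were higher, with log2 fold changes of 0.08 for Gpi1 and 0.10 for Pgam1 (adjusted p = 0.017 and 0.0056), and 4057 of all genes were higher and 4154 lower. For pairing, each gene's group mean of log2 CPM was subtracted, and the remaining deviations were correlated between libraries of different groups. For same-numbered libraries these correlations were 0.0792, 0.0953, 0.138 and 0.104. Every Ad-EV (GFP) library correlated best in this way with the Ad-IRF7 library of its own number, a hint from the data and not from the design. The number higher was 8 to 10 when a library was left out. Both passed without Ad-IRF7 replicate 2 (adjusted p = 0.03 and 0.043), only Gpi1 without Ad-IRF7 replicate 1 (0.048) and only Pgam1 without Ad-EV (GFP) replicate 3 (0.048). Without Ad-IRF7 replicate 3 the log2 fold changes were smaller, 0.058 for Gpi1 (adjusted p = 0.16) and 0.053 for Pgam1 (0.3), and without Ad-EV (GFP) replicate 2 Pgam1 was at 0.066 (0.26). The difference in the Aldoc share, 0.0038 percentage points, changed sign when some libraries were left out (-0.020 to 0.033 points). Tpi1 ranged from 0.71 to 0.79 and Pkm from 0.59 to 0.66 on the log2 scale.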
